A study of Mus musculus with 57 samples.

Results

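Mouse embryonic stem cells sorted as Sox1-positive were compared with cells sorted as Sox1-negative after 2 days in retinoic acid. The comparison used 12 of the 57 libraries of the series, chosen by the day and the sorted population in their labels. On the positive side stood 3 libraries of Sox1+FOXA2- cells and 3 of Sox1+FOXA2+ cells. Facing them were 3 libraries of Sox1-FOXA2- cells and 3 of Sox1-FOXA2+ cells, so the FOXA2 gate entered the model as a covariate.

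The cells were a Sox1-EGFP/FoxA2mCherry reporter line kept in serum and LIF and then moved to medium with 1 uM retinoic acid. Fluorescence-activated sorting put equal numbers of cells into each well, and total RNA was made into libraries with the SMART-Seq Stranded kit. Day 0 was represented by 3 Sox1-FOXA2- libraries made before retinoic acid, and these are given beside the day 2 values without a test. As a model, the line is 1 clone expanded from a single sorted cell, with mCherry knocked in by CRISPR at the end of FoxA2 in Sox1-EGFP cells. The study describes 3 biological replicates for each condition, and the labels number them without naming separate cultures, so the p-values measure the spread between these libraries.

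Sox1 encodes a transcription factor of the early neural plate, and its reporter is used to mark cells that enter the neural lineage. FOXA2 marks floor plate, endoderm and node derivatives. Retinoic acid acts through nuclear receptors that switch on Hox genes and the enzymes that degrade it, while genes of naive pluripotency are shut down. Because each library is a bulk pool, fewer cells of a type and less RNA per cell cannot be told apart.

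The gates were checked first against the reporter genes themselves. Sox1 (ENSMUSG00000096014.1, chromosome 8, 12395295 to 12400126, GRCm38) had 0 counts in all 57 libraries. It lies inside the span of the noncoding gene Sox1ot (ENSMUSG00000047935.17, chromosome 8, 12385771 to 12436768). In the same way, 685 of 688 coding genes that lie wholly inside the span of another gene, without shared exons, had 0 counts (99.6%), against 336 of 14067 genes outside such spans (2.39%). The Sox1 gate could therefore not be checked by Sox1 counts.

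Sox1ot itself was counted sparsely, with 576 raw counts over the 12 libraries. Counts after normalization were 0, 11.5 and 0 in Sox1+FOXA2+ cells and 181, 148.5 and 0 in Sox1+FOXA2- cells. In Sox1-negative cells they were 91.6, 0 and 0 with FOXA2 and 2.88, 26 and 0 without it. The 2 sides overlapped, and edgeR gave a log2 difference of 0.29 (SE 3.64, p 0.937).

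Foxa2 (ENSMUSG00000037025.11, chromosome 2, 148042877 to 148046969), the other gated gene, followed its own gate. Normalized counts were 1678, 2071 and 1126 in Sox1+FOXA2+ cells and 3423, 3211 and 1733 in Sox1-FOXA2+ cells. FOXA2-negative gates had 327, 343 and 0 (Sox1+) and 114, 0 and 0 (Sox1-), below every FOXA2-positive library, and day 0 had 5.27, 0 and 0. Between the Sox1 gates the Foxa2 values overlapped (log2 difference in edgeR 0.85, p 0.491, and -0.62 without the FOXA2 term). Mean Foxa2 counts ran the other way, at 924 in Sox1-positive and 1414 in Sox1-negative libraries.

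Depth ran from 25237064 to 61358355 counted reads, with a median of 36769772, and 15262 to 23037 genes were detected per library. Depth differed between the Sox1 gates with an exact permutation p of 0.585 within the FOXA2 gates. Genes detected averaged 18690 (SD 3450) in Sox1-positive and 19160 (SD 1750) in Sox1-negative libraries, exact permutation p 0.74. Across 400 arrangements, 0.005 was the smallest p these permutations can give.

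By principal components 2 libraries stood apart, both on the Sox1-positive side. Sox1+FOXA2- replicate 3 had a score of -10.3 on the first principal component, where the other Sox1-positive libraries had 2.34 to 7.15. It sat beside the Sox1-FOXA2- libraries, whose scores were -6.14, -16.45 and -9.98, and it carried more RNA of the pluripotency genes Zfp42 and Tfcp2l1 than the other 5 Sox1-positive libraries. Sox1+FOXA2+ replicate 3 scored 15.8 on the second component and had the lowest depth and the fewest genes detected. The first component held 41.6% of the variance and the second 20%, with exact permutation p of 0.14 and 0.86 for the Sox1 gates. On log2 CPM the first component gave an exact permutation p of 0.015. In edgeR, 0 genes were called with all 12 libraries and 0 when either of these was left out, while the genes at unadjusted p under 0.05 numbered 901 with all libraries and 1383 without Sox1+FOXA2- replicate 3. Leaving out Sox1+FOXA2+ replicate 3 gave 1276.

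**Figure D1:**
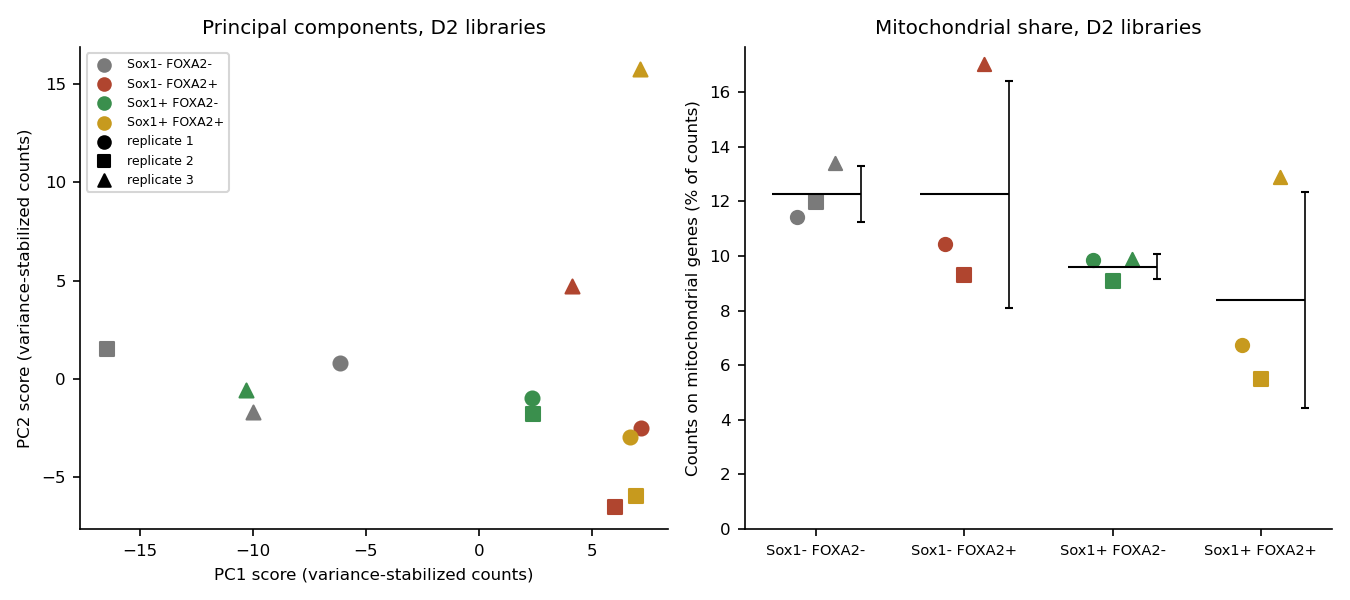
Left, scores of the 12 day 2 libraries on the first 2 principal components; right, percent of counts on mitochondrial genes in the same libraries, with lines for group means and bars for 1 SD. Colours give the 4 sorted groups and shapes the replicate, and Sox1+FOXA2- replicate 3 (green triangle) lies among the Sox1-FOXA2- libraries (grey).

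Testing for genes that differ between the Sox1 gates asks whether the reporter already separates distinct states of the transcriptome 2 days into retinoic acid. At this time cells are leaving pluripotency, and the Sox1 reporter is used as a marker of neural entry. The study cautions against SOX1 as the only such marker, because Sox1-positive cells could still turn on FOXA2. Reporter proteins appear with a delay after their RNA and also outlast it. The edgeR test called 0 of 20369 genes (0%) at adjusted p under 0.05, and 54 (25 higher, 29 lower) without the filter on low counts. At unadjusted p under 0.05 there were 901 genes (4.42%), 504 higher and 397 lower in Sox1-positive cells, where about 1018 are reached when no gene differs. That count was 1333 of the same genes for the mean of the within-gate differences, 1881 of 28237 with all 39 libraries in 1 model and 1169 to 1383 over the leave-outs, which test more genes. Its balance turned with single libraries, from 902 higher and 436 lower without Sox1-FOXA2- replicate 1 to 601 and 669 with Sox1+FOXA2- replicate 2 left out and 648 and 664 with Sox1+FOXA2+ replicate 1 left out. DESeq2 called 37 genes, 25 higher and 12 lower, each of them at unadjusted p under 0.05 in edgeR. Of those 37, 19 had counts in all 12 libraries and 12 had counts in 6 or fewer. A p that misses the threshold does not show that the gates had the same level.

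Across all genes tested the median log2 difference was -0.01, and 49.1% were positive. The spread was wide, with a median SE of 0.982 over all genes and 0.244 over the 5734 genes with higher counts. Among the latter, 418 (7.29%) had unadjusted p under 0.05. With the filter, none of the genes named for this comparison passed adjustment in edgeR, and the smallest adjusted p was 0.539. The 54 genes called without the filter included Meox1, Cyp1b1, Ccnd2, Hoxb8, Crybg3, Klf5, Lrpap1, Fam124a, mt-Co1, mt-Cytb and mt-Nd1. DESeq2 called each of the 10 genes with the smallest edgeR p among those higher in Sox1-positive cells, and 5 of the 10 among those lower (mt-Co1, mt-Cytb, mt-Nd1, Fam124a and Lmo7). Most genes named below were picked by small p, so a lack of overlap between the same libraries is not separate evidence. How many of all genes lack overlap was not counted.

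Meox1 encodes a homeobox factor of paraxial mesoderm and somites, and in edgeR it had the smallest p among genes higher in Sox1-positive cells. Its normalized counts ran from 918 (median 1528) to 2405 in Sox1-positive libraries and from 79.4 (median 474) to 722 in Sox1-negative libraries. The 2 sides did not overlap, and day 0 had 0, 47.4 and 0. The log2 difference for Meox1 (ENSMUSG00000001493.9, chromosome 11, 101877510 to 101894374) was 2.05 (SE 0.44, unadjusted p 0.000203, adjusted p 0.771). It was 2.65 among FOXA2-negative and 1.46 among FOXA2-positive cells, with an interaction of -1.20 (p 0.156). Over the 20 alternatives it ran from 1.79 to 2.23.

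Hoxb8 is a patterning gene of the posterior neural tube that retinoic acid can induce. Hoxb8 (ENSMUSG00000056648.5, chromosome 11, 96281905 to 96285315) had normalized counts of 1370 to 3298 (median 1800) in Sox1-positive and 309 to 1320 (median 689) in Sox1-negative libraries. These ranges were apart, and at day 0 Hoxb8 had 0, 0 and 43.1. Hoxb8 differed by 1.498 in log2 (SE 0.34, p 0.000379), 1.56 without FOXA2 and 1.43 with it. Its adjusted p in edgeR was 0.771.

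Cyp1b1 and Ccnd2 stood next to Meox1 by p. Cyp1b1 encodes an enzyme that can make retinoic acid from retinol, and Ccnd2 encodes cyclin D2, which drives progenitors through the G1 phase. For Cyp1b1 (ENSMUSG00000024087.4, chromosome 17, 79701537 to 79715061) normalized counts were 687 to 3356 (median 2026) in Sox1-positive and 150 to 624 (median 514) in Sox1-negative libraries. They did not overlap, although day 0 libraries already had 364, 102 and 0. The log2 difference of Cyp1b1 was 2.19 (SE 0.48, p 0.000278), and it ran from 1.90 to 2.38 over the alternatives. For Ccnd2 (ENSMUSG00000000184.12, chromosome 6, 127125162 to 127152193) the counts were 1887 to 7553 (median 2497) against 589 to 2254 (median 1171). They overlapped, with 3 Sox1-positive libraries above the highest Sox1-negative one. Its log2 difference was 1.60 (SE 0.35, p 0.000281; interaction -1.03, p 0.132). Of the exon bases of Ccnd2 28.7% lie in another gene.

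Structural and signalling genes were also among the 10 genes with the smallest p that were higher in Sox1-positive cells. Crybg3 (ENSMUSG00000022723.16, chromosome 16, 59490775 to 59600979), which encodes a vesicle-associated anchoring protein, had normalized counts of 1731 to 6419 (median 2137) against 953 to 1566 (median 1211), without overlap. Tln1 (ENSMUSG00000028465.16), which encodes the integrin adaptor talin, had 11980 to 15600 (median 14190) against 8567 to 10610 (median 9842). Those ranges did not overlap either. Their log2 differences were 1.23 (SE 0.29, p 0.000528) for Crybg3 and 0.51 (SE 0.13, p 0.000937) for Tln1. Irf2bp2 (ENSMUSG00000051495.7), a transcriptional corepressor gene with 53.0% of its exon bases in another gene, had 1535 to 3932 (median 1905) against 735 to 1561 (median 852), an overlap that left 4 Sox1-positive libraries above all Sox1-negative ones. It differed in log2 by 1.08 (SE 0.26, p 0.000592). The scaffold gene Akap12, with 21220 to 30440 (median 27930) against 15040 to 22110 (median 17620), overlapped and differed by 0.55. Slc9a3r1, a gene for a membrane scaffold, differed by 0.75 with an interaction of -0.75 (p 0.0377).

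**Figure D2:**
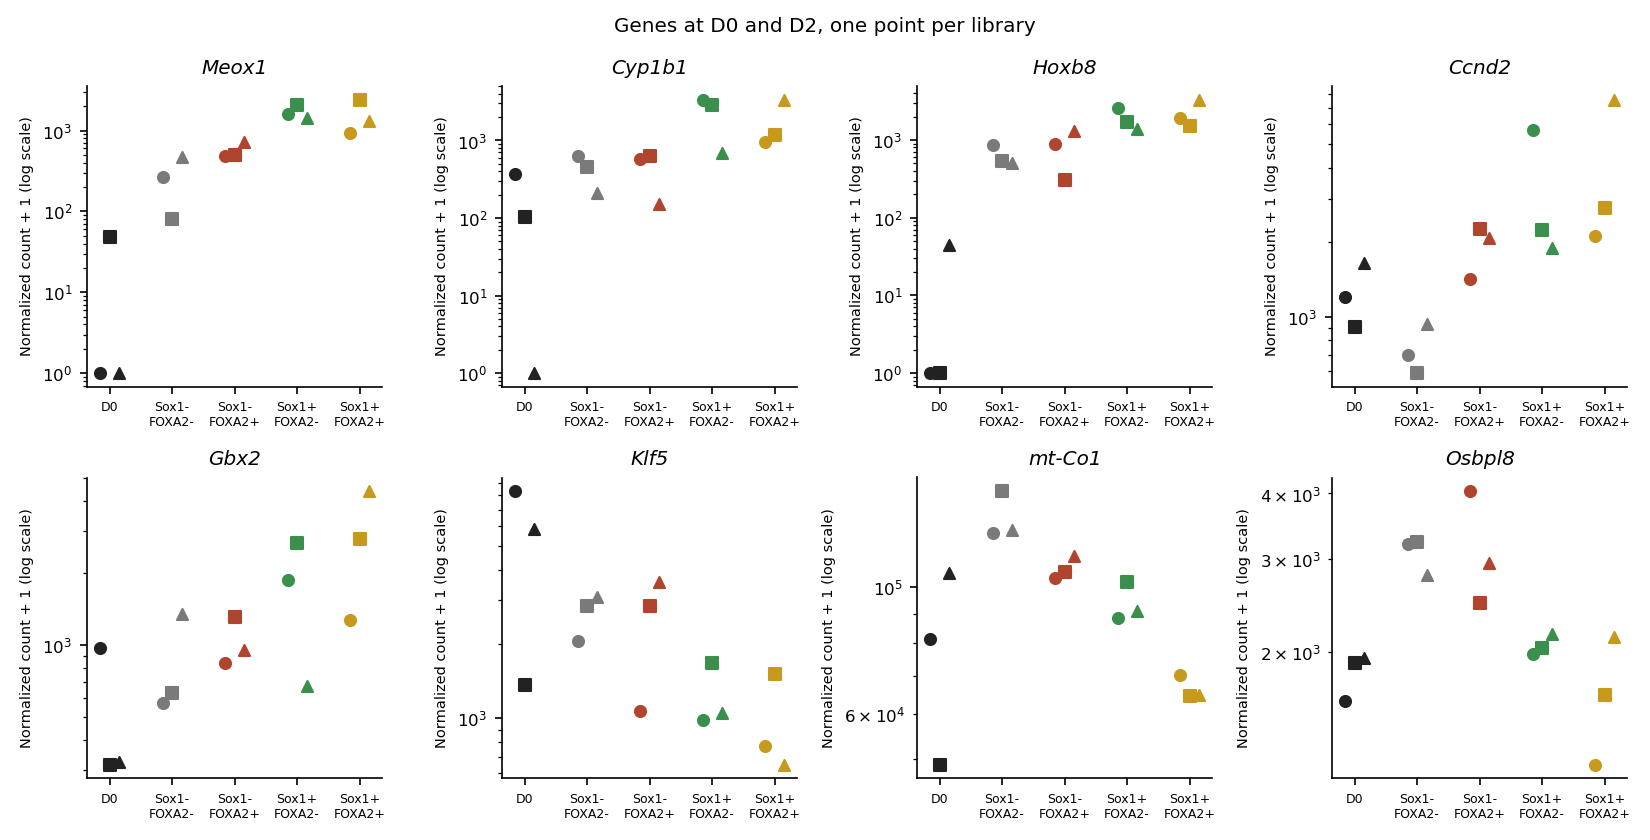
Normalized count plus 1 on a log scale for 8 genes, with 1 point per library at day 0 (black) and in the 4 sorted groups of day 2, and shapes for the replicate. For Meox1, Cyp1b1, Hoxb8, mt-Co1 and Osbpl8 the Sox1-positive and Sox1-negative libraries of day 2 do not overlap. These genes were named for small p in the same libraries, so this is not separate evidence.

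Klf5, Osbpl8 and Lrpap1 were among the genes lower in Sox1-positive cells. Klf5 encodes a factor that sustains self-renewal of embryonic stem cells, Osbpl8 a lipid transfer protein and Lrpap1 a chaperone of LDL-family receptors. Normalized counts of Klf5 (ENSMUSG00000005148.8, chromosome 14, 99298691 to 99315036) were 648 to 1676 (median 1018) in Sox1-positive and 1071 to 3556 (median 2849) in Sox1-negative libraries. The ranges overlapped, although 4 Sox1-positive libraries lay below all Sox1-negative ones, and day 0 had 8311, 1360 and 5834. Its log2 difference was -1.24 (SE 0.31, p 0.000983). Osbpl8 (ENSMUSG00000020189.14, chromosome 10, 111164752 to 111297249) had 1223 to 2160 (median 2007) against 2479 to 4039 (median 3081), with no overlap. The fitted log2 difference was -0.76 (SE 0.20, p 0.0012). Lrpap1 had 288 to 2575 (median 1406) against 2279 to 3988 (median 3371), overlapping, and a log2 difference of -1.34 (interaction -1.25, p 0.0582).

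Other genes of this side were less clearly tied to cell fate. Lmo7, which encodes a protein of cell junctions, had normalized counts of 770 to 1173 (median 954) against 1048 to 2691 (median 2036). The ranges overlapped, and the log2 difference was -1.004. Fam124a, whose function is poorly described, had 83.5 to 861 (median 304) against 536 to 4142 (median 912) and overlapped (log2 difference -1.94). Mbd5, a gene of a chromatin-binding protein, and Arl15, a gene of a small GTPase, had log2 differences of -0.85 and -0.82. None of the 20 genes named by smallest p changed sign over the alternatives tried. They were picked by p from these same libraries, so a kept sign adds no evidence.

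Mitochondrial genes encode subunits of the respiratory chain, and their share of RNA varies with metabolism and with how much nuclear-encoded RNA a cell holds. It also varies with handling of the cells, so it is given per library. Among the 10 genes with the smallest p that were lower in Sox1-positive cells, 3 were mitochondrial: mt-Co1, mt-Cytb and mt-Nd1. Mitochondrial share was 6.727%, 5.507% and 12.89% in Sox1+FOXA2+ and 9.852%, 9.096% and 9.88% in Sox1+FOXA2- cells. In Sox1-negative cells it was 10.43%, 9.312% and 17.02% with FOXA2 and 11.43%, 11.97% and 13.42% without, so the sides overlapped. Within each FOXA2 gate, each Sox1-positive library was lower than the Sox1-negative library of the same replicate number. That pairing was not tested, and the permutation given next does not use it. The means were 8.992% (SD 2.61) and 12.26% (SD 2.71), a difference of -3.272 points with exact permutation p 0.08. Without Sox1+FOXA2+ replicate 3 the difference was -4.051 points (exact permutation p 0.01). Day 0 libraries spread more widely, at 6.805%, 3.211% and 18.11%.

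With the filter on low counts edgeR called 0 mitochondrial genes, and without it 5 (mt-Rnr1, mt-Rnr2, mt-Co1, mt-Cytb and mt-Nd1, all lower), while DESeq2 called 4 (mt-Co1, mt-Cytb, mt-Nd1 and mt-Nd2). Normalized counts of mt-Co1 (ENSMUSG00000064351.1, chromosome M, 5328 to 6872), a cytochrome c oxidase gene, were 64570 to 102300 (median 79200) against 104000 to 147300 (median 119200), without overlap. Its log2 difference was -0.61 (SE 0.11, p 2.64e-05, adjusted p 0.539). Cytochrome b, encoded by mt-Cytb, had 61650 to 85970 (median 80590) against 95220 to 122300 (median 109300), also without overlap, and a log2 difference of -0.48. All 13 mitochondrial coding genes were negative, 6 of them at p under 0.05 (against 4.42% of all genes), with a median of -0.48. The 7 with higher counts (mt-Co1, mt-Cytb, mt-Nd1, mt-Nd2, mt-Nd4, mt-Nd5 and mt-Nd6) ran from -0.61 to -0.33, while the other 6 had about 1 CPM or less and ran from -1.30 to -0.26 with large errors. Of 37 mitochondrial genes 18 were tested and 16 of those were negative. With mitochondrial genes removed before normalization, an alternative chosen after seeing the data, edgeR again called 0 genes and 878 had unadjusted p under 0.05, where DESeq2 on all genes called 37.

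Neural progenitor genes act in the cells that a Sox1 reporter marks. They include transcription factors of the neural plate and its regions, an intermediate filament gene and the neural cadherin. Some of them come on only after the tissue is patterned. Of 16 list members tested, 0 were called and 5 had unadjusted p under 0.05 (31.2%, against 4.42% of all genes), all 5 higher in Sox1-positive cells. These were Gbx2 (1.22), Pax6 (1.16), Nes (0.91), Cdh2 (0.70) and Msi1 (0.69), of which Pax6, Nes and Msi1 were named after their values were seen. The list median was 0.70, beside -0.01 for all genes tested, and 13 of 16 were positive. This list and those below were chosen with earlier results of these data known, so their shares are descriptive. Among genes with higher counts the share at p under 0.05 was 7.29%.

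The count of 5 depended on single libraries, and over the leave-outs it ran from 2 to 6. It was 2 without Sox1-FOXA2- replicate 3, 2 (1 higher, 1 lower) without Sox1+FOXA2- replicate 1, and it was 3 without Sox1-FOXA2+ replicate 1. The list median held between 0.57 and 0.82. Without Sox1+FOXA2- replicate 3 the count was 6 (5 higher, 1 lower) of 17, and it was the same without Sox1+FOXA2+ replicate 3. Without Sox1-FOXA2- replicate 2 there were 2 higher and 2 lower. Hes5, Fabp7, Dbx1 and Olig2 had too few counts to be tested. Zfp521, a zinc finger gene that promotes neural entry, was the member with the smallest p in the other direction (-0.81, p 0.137).

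Gbx2 encodes a homeobox factor of the anterior hindbrain that is also active in stem cells. Its normalized counts were 1276, 2772 and 4389 in Sox1+FOXA2+ and 1873, 2669 and 674 in Sox1+FOXA2- cells. With Sox1 negative they were 843, 1306 and 953 in FOXA2-positive and 573, 629 and 1341 in FOXA2-negative cells. Sox1+FOXA2- replicate 3 and Sox1+FOXA2+ replicate 1 lay within the Sox1-negative range. The log2 difference of Gbx2 (ENSMUSG00000034486.8, chromosome 1, 89927956 to 89931179) had p 0.00394, and 43.4% of its exon bases lie in another gene.

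Cdh2 encodes N-cadherin, which replaces E-cadherin as cells turn neural or mesodermal. Per library, the normalized counts were 3097, 6617 and 7484 in Sox1+FOXA2+ and 6148, 6640 and 2578 in Sox1+FOXA2- cells. Sox1-negative libraries had 5163, 3972 and 3869 with FOXA2 and 3897, 1975 and 1732 without. The sides overlapped, with 4 Sox1-positive libraries above every Sox1-negative one and 2 Sox1-negative libraries below every Sox1-positive one. At day 0 Cdh2 (ENSMUSG00000024304.14, chromosome 18, 16588877 to 16809246) had 519, 801 and 315. Mean levels of Pax6, a gene of dorsal and ventral neural progenitors, in Sox1-positive cells were 2668 without and 1259 with FOXA2, and in Sox1-negative cells 642 without and 1050 with it.

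Summed over the list, neural progenitor genes reached 15870, 22000 and 23840 normalized counts in Sox1+FOXA2+ and 23320, 20050 and 7765 in Sox1+FOXA2- cells. Sums in Sox1-negative cells were 16610, 11420 and 19470 with FOXA2 and 10750, 6854 and 9912 without. These overlapped, with Sox1+FOXA2- replicate 3 near the Sox1-FOXA2- level, and day 0 sums were 2919 to 7951. Cdh2 was the most abundant member tested, and Sox1, the defining marker, was at 0. Whether the gates differ in the number of neural cells was not tested.

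**Figure D3:**
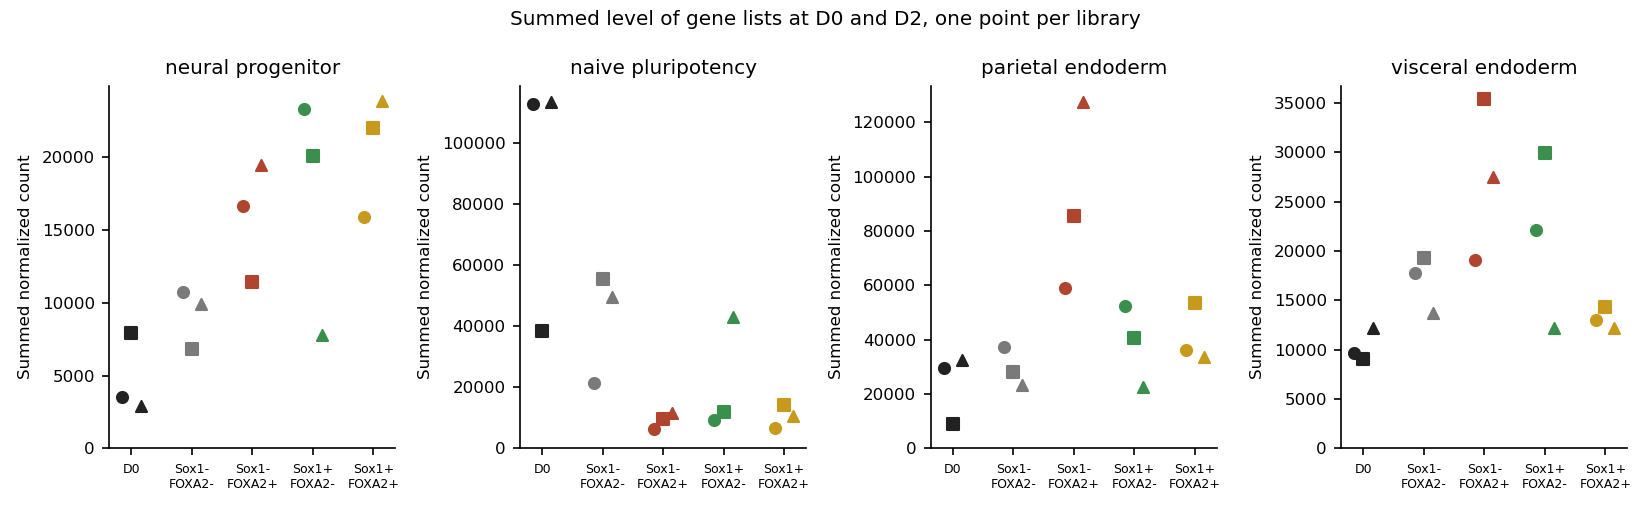
Summed normalized count of 4 gene lists (neural progenitor, naive pluripotency, parietal endoderm, visceral endoderm) with 1 point per library at day 0 and in the sorted groups of day 2. Sox1+FOXA2- replicate 3 (green triangle) has the lowest neural and the highest naive pluripotency sum of the Sox1-positive libraries.

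Neuronal differentiation genes come later in the lineage. Of 8 members tested out of 14, 0 were called and 1 (12.5%, against 4.42% of all genes) had p under 0.05, with a median of 0.10. This was Map2, a dendritic microtubule gene, with normalized counts of 1668 to 6539 (median 1956) against 708 to 2516 (median 1553). The ranges overlapped, and the log2 difference was 0.68 (p 0.0386), running from 0.34 to 0.80 over the alternatives. The count was 2 without Sox1-FOXA2- replicate 1, Sox1+FOXA2- replicate 3 or Sox1+FOXA2+ replicate 1 or 2. It was 0 without Sox1-FOXA2- replicate 2, Sox1-FOXA2+ replicate 2 or 3, Sox1+FOXA2- replicate 1 or 2, or Sox1+FOXA2+ replicate 3. Neurod1 and Tubb3 were at 0 and lie wholly within other genes. Summed levels were 3243 to 9404 (median 4811) against 3315 to 5382 (median 3926).

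Pluripotency genes are shut down as retinoic acid takes effect. The naive set holds factors of the ground state and their targets, and the core set is shared with the formative state that follows. In the naive list edgeR called 0 of 14 members tested (1, Klf5, without the filter on low counts) and 2 (14.3%, against 4.42% of all genes) had p under 0.05, Klf2 (-2.05, named after its values were seen) and Klf5 (-1.24), both lower in Sox1-positive cells. Its median was -0.45, with 5 of 14 positive, and ran from -0.613 (Sox1+FOXA2- replicate 3 left out) to -0.105 (without Sox1+FOXA2- replicate 1). The count was 1 without Sox1-FOXA2- replicate 2 or 3, Sox1-FOXA2+ replicate 3, or Sox1+FOXA2- replicate 1 or 2. It was 3 without Sox1-FOXA2- replicate 1, Sox1-FOXA2+ replicate 1 or 2, or Sox1+FOXA2+ replicate 1, and it was 4 without Sox1+FOXA2- replicate 3 or Sox1+FOXA2+ replicate 2.

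Zfp42 encodes REX1, a marker of naive cells, and was the most abundant member. Normalized counts were 1101, 2831 and 1818 in Sox1+FOXA2+ and 1136, 1580 and 10710 in Sox1+FOXA2- cells. They were 1162, 1102 and 482 in Sox1-FOXA2+ and 4365, 10310 and 12580 in Sox1-FOXA2- cells, with 27530, 8953 and 25250 at day 0. The sides overlapped, and Sox1+FOXA2- replicate 3 lay among the Sox1-FOXA2- libraries. In edgeR the log2 difference of Zfp42 (ENSMUSG00000051176.6, chromosome 8, 43295063 to 43306980) was 0.00 (p 0.996), and its interaction was 2.10 (p 0.0391). Its sign turned negative under several alternatives, given in the closing section.

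Summed naive levels divided the libraries in the same way as Zfp42. They were 6582, 14050 and 10650 in Sox1+FOXA2+ and 9135, 11860 and 43020 in Sox1+FOXA2- cells. In Sox1-negative cells the sums were 6456, 9475 and 11500 with FOXA2 and 21550, 55510 and 49720 without, against 38490 to 113400 at day 0. The Sox1-FOXA2- gate thus held the high sums, joined by Sox1+FOXA2- replicate 3. Whether this reflects cells that had not responded was not tested.

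In the core and formative list 0 of 15 members tested were called and 1 (6.67%, against 4.42% of all genes) had p under 0.05, with a median of 0.06 and 8 positive. This was Lin28a, which encodes an RNA-binding protein kept through neural induction. Its normalized counts were 20290, 24780 and 18260 in Sox1+FOXA2+ and 16340, 17190 and 12320 in Sox1+FOXA2- cells. The Sox1-negative gates had 16410, 16040 and 15950 with FOXA2 and 11370, 8925 and 5751 without, so the sides overlapped. In edgeR it differed by a log2 of 0.59 (p 0.00293), while Dppa2, a gene of early embryonic chromatin, had -0.53 (p 0.0911). The count was 2 (1 higher, 1 lower) without Sox1-FOXA2+ replicate 1 or Sox1+FOXA2- replicate 3, and it was 3 (1 higher, 2 lower) without Sox1+FOXA2+ replicate 3. Sox2 was at 0 and lies wholly within another gene. Summed core levels were 43450 to 53450 (median 46420) against 35900 to 50480 (median 40110).

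Genes of the 2-cell-like state such as the Zscan4 and Usp17l families mark a rare state of cultured stem cells. Of 14 members tested edgeR called 0 (2, Usp17lc and Zscan4c, without the filter on low counts) and 2 (14.3%, against 4.42% of all genes) had p under 0.05, Zscan4a and Usp17lc (Usp17lc and Zscan4c were named after their values were seen), both lower in Sox1-positive cells. The median was -0.97 and 12 were negative. Normalized counts of Zscan4a were 0, 0 and 1.44 in Sox1+FOXA2+ and 664, 68.9 and 336 in Sox1+FOXA2- cells. They were 0, 1.03 and 0 in Sox1-FOXA2+ and 1027, 5548 and 589 in Sox1-FOXA2- cells, so that the FOXA2 gate divided them more plainly than the Sox1 gate. The log2 difference was -2.46 (p 0.0147), and it ran from -3.05 to -0.87 (without Sox1-FOXA2- replicate 2) over the alternatives. Without Sox1-FOXA2- replicate 2 the count was 0, without Sox1+FOXA2+ replicate 1 or 2 it was 1, without Sox1+FOXA2- replicate 1 or Sox1+FOXA2+ replicate 3 it was 3, and it was 4 without Sox1+FOXA2- replicate 3. These families are near identical in sequence, so the assignment of reads to single members is uncertain.

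Summed 2-cell-like levels were 620, 546 and 3955 in Sox1+FOXA2+ and 17810, 1147 and 11440 in Sox1+FOXA2- cells. They were 197, 364 and 4657 in Sox1-FOXA2+ and 32400, 62280 and 8788 in Sox1-FOXA2- cells. The sides overlapped, and the most abundant member was Zscan4d.

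Retinoic acid response genes report how strongly a cell reads the signal. Cyp26a1 degrades retinoic acid and is a direct target, Crabp2 carries it to the receptors, and Stra8 is strongly induced in stem cells. Of 15 members tested edgeR called 0 (1, Cyp26a1, without the filter on low counts) and 3 (20%, against 4.42% of all genes) had p under 0.05, Crabp2 higher and Cyp26a1 and Stra8 lower in Sox1-positive cells. The median was 0.05 with 9 positive, and it ran from -0.248 (Sox1+FOXA2+ replicate 3 left out) to 0.249 (without Sox1-FOXA2- replicate 1). The count was 5 without Sox1-FOXA2+ replicate 1, Sox1+FOXA2- replicate 3 or Sox1+FOXA2+ replicate 3. It was 2 without Sox1-FOXA2- replicate 1, Sox1-FOXA2+ replicate 2 or Sox1+FOXA2- replicate 1.

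Cyp26a1 (ENSMUSG00000024987.6, chromosome 19, 37697798 to 37701536) had normalized counts of 2128, 1487 and 1734 in Sox1+FOXA2+ and 3139, 1102 and 3125 in Sox1+FOXA2- cells. Sox1-negative libraries had 2938, 4976 and 9425 with FOXA2 and 3892, 4858 and 1398 without. The sides overlapped, and at day 0 Cyp26a1 had 0, 0 and 17.2. Its log2 difference was -1.09 (p 0.00858). Crabp2 ran from 1957 to 6646 (median 4008) against 538 to 4173 (median 1695), overlapping, with a log2 difference of 0.96 (p 0.0249). Stra8 ran from 17130 to 48470 (median 22780) against 26490 to 49220 (median 34120). Of the 6 Sox1-positive libraries 5 lay below every Sox1-negative one for Stra8, and its log2 difference was -0.46 (p 0.0263). Summed levels of the list were 47480 to 74330 (median 55600) against 53940 to 86770 (median 65190), and 10670 to 15180 at day 0.

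Hox genes and their cofactors set position along the body axis. In this list 0 of 12 members tested were called and 0 had p under 0.05 (0%, against 4.42% of all genes), with 7 positive and a median of 0.19. Meis1, a Hox cofactor gene, had the smallest p among positive members (0.60, p 0.151). Hoxa3, Hoxa4, Hoxa5, Hoxb2, Hoxb5, Hoxb6, Hoxd3 and Hoxd4 were at 0 at day 2, and 7 of these lie wholly within other genes. Hoxb8, higher in Sox1-positive cells as given above, was not a member of the list. Summed levels were 17320 to 56730 (median 46440) against 14860 to 67920 (median 37180), with 1286 to 7137 at day 0.

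Extraembryonic endoderm is the other fate that retinoic acid draws from stem cells. Parietal endoderm secretes laminins, collagens and SPARC into Reichert's membrane, and visceral endoderm carries uptake receptors such as megalin, encoded by Lrp2. FOXA2 is active in visceral endoderm. Of 13 parietal members tested edgeR called 0 (1, Lamc1, without the filter on low counts) and 4 (30.8%, against 4.42% of all genes) had p under 0.05, all lower in Sox1-positive cells. They were Sparc (-0.82), Lamc1 (-0.73), Nid1 (-0.75) and Srgn (-1.41), with Nid1 and Srgn named after their values were seen. Over the alternatives Sparc ran from -1.04 to -0.42 and Lamc1 from -0.92 to -0.47. The median was -0.50 and 11 of 13 were negative, and leave-out medians ran from -0.821 (Sox1-FOXA2- replicate 3 left out) to -0.209 (without Sox1-FOXA2+ replicate 3). The count was 0 without Sox1-FOXA2+ replicate 3 or Sox1+FOXA2+ replicate 1 or 2, 1 without Sox1-FOXA2- replicate 1 or Sox1-FOXA2+ replicate 2, and it was 2 without Sox1+FOXA2- replicate 2 or 3 or Sox1+FOXA2+ replicate 3.

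Sparc encodes a matrix glycoprotein secreted in bulk by parietal endoderm. Libraries held normalized counts of 3236, 3046 and 3537 in Sox1+FOXA2+ and 3660, 3605 and 1803 in Sox1+FOXA2- cells. They were 5250, 6077 and 18180 in Sox1-FOXA2+ and 4497, 2377 and 2466 in Sox1-FOXA2- cells. The Sox1-FOXA2+ libraries lay above all Sox1-positive ones, while the Sox1-FOXA2- libraries overlapped with them. Lamc1, the gene of the laminin gamma 1 chain (ENSMUSG00000026478.14, chromosome 1, 153218922 to 153332786), had 7626, 6344 and 2967 in Sox1+FOXA2+ and 12730, 11010 and 6961 in Sox1+FOXA2- cells. In Sox1-negative cells Lamc1 had 11820, 14510 and 22470 with FOXA2 and 10870, 11030 and 7190 without, an overlap. Sparc is at chromosome 11, 55394500 to 55423183 (ENSMUSG00000018593.13).

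Summed parietal levels were 36220, 53350 and 33560 in Sox1+FOXA2+ and 52360, 40500 and 22510 in Sox1+FOXA2- cells. In Sox1-FOXA2+ cells they were 58870, 85730 and 127500, above every other day 2 library. Sox1-FOXA2- cells had 37460, 28110 and 23460, and day 0 had 9034 to 32350. Lamc1 was the most abundant member, and no member was at 0. Whether parietal endoderm cells were present was not tested.

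In the visceral list 0 of 15 members tested were called and 1 (6.67%, against 4.42% of all genes) had p under 0.05, with a median of -0.03. This was Gata4, a gene of a master regulator of endoderm, at -2.15 (p 0.0281). Its normalized counts were 44.2, 256 and 49.0 in Sox1+FOXA2+ and 90.5, 89.7 and 20.5 in Sox1+FOXA2- cells. They were 80.1, 1196 and 1171 in Sox1-FOXA2+ and 143, 34.2 and 385 in Sox1-FOXA2- cells, overlapping. Summed levels were 12990, 14310 and 12240 in Sox1+FOXA2+, 22120, 29900 and 12150 in Sox1+FOXA2-, 19130, 35420 and 27550 in Sox1-FOXA2+ and 17820, 19250 and 13760 in Sox1-FOXA2- cells, with 9096 to 12230 at day 0. The count of 1 was 0 without Sox1-FOXA2- replicate 3, Sox1-FOXA2+ replicate 2 or 3, or Sox1+FOXA2+ replicate 1, and it was 3 without Sox1+FOXA2- replicate 2. The sums overlapped, and Lrp2 made up 55.2% of them. Whether visceral endoderm was present was not tested.

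Floor plate and notochord share FOXA2 with endoderm and signal through Sonic hedgehog. Ptch1 encodes the receptor for this signal and is one of its direct targets. Of 9 members tested edgeR called 0 (1, Ptch1, without the filter on low counts) and 2 (22.2%, against 4.42% of all genes) had p under 0.05, Shh and Ptch1, both lower in Sox1-positive cells, with a median of -0.46. The count was 3 without Sox1-FOXA2- replicate 2 or 3, Sox1-FOXA2+ replicate 1, or Sox1+FOXA2- replicate 1 or 3. Shh (ENSMUSG00000002633.4, chromosome 5, 28456815 to 28467256) was at 0 in all 6 Sox1-positive libraries. In Sox1-negative cells it had 47.7, 0 and 178 with FOXA2 and 0, 0 and 78.5 without, so 3 libraries on that side were at 0 as well. Its 284 raw counts thus came from 3 libraries, and no fold is given.

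Ptch1 (ENSMUSG00000021466.12, chromosome 13, 63508328 to 63573598) had normalized counts of 3897, 10360 and 10510 in Sox1+FOXA2+ and 3611, 4909 and 3655 in Sox1+FOXA2- cells. They were 12210, 28100 and 21160 in Sox1-FOXA2+ and 3112, 4527 and 6833 in Sox1-FOXA2- cells. Within the FOXA2-positive gate the sides did not overlap, and within the FOXA2-negative gate they did. Fitted in edgeR, the log2 difference was -0.80 (p 0.014), and Ptch1 made up 78.1% of the summed list. Those sums were 6612, 12900 and 12810 in Sox1+FOXA2+, 6959, 7513 and 4942 in Sox1+FOXA2-, 15300, 33080 and 26430 in Sox1-FOXA2+ and 4861, 5438 and 7626 in Sox1-FOXA2- cells, overlapping. Nkx2-2 was at 0, and whether floor plate cells were present was not tested.

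Other germ layers were followed by 3 lists without a member at p under 0.05 or a call in edgeR, where DESeq2 called 37 genes of all tested. Primitive streak and mesendoderm genes had 0 of 7, a median of 1.53 with 5 positive and leave-out medians from -0.73 to 1.86. Wnt3, a signal of the streak, had 1.85 (p 0.265), Eomes, a T-box factor gene, had -2.04 (p 0.227), and Foxa1, the most abundant member, had -0.59. Neural crest and mesenchyme genes had 0 of 9 and a median of 0.82, with 7 positive and Tfap2b, a gene of early crest, at 4.44 (p 0.0541). Foxd3, a defining crest marker, was at 0, and Ets1 was the most abundant member. Trophectoderm genes had 0 of 9 and a median of -0.14, with Tfap2c, also active in germ cells and naive cells, at 1.86 (-0.20 without the FOXA2 term) and the keratin gene Krt18 at -0.72.

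Summed crest levels were 1502, 4347 and 3526 in Sox1+FOXA2+ and 1866, 1216 and 769 in Sox1+FOXA2- cells. They were 1012, 1886 and 653 in Sox1-FOXA2+ and 996, 750 and 827 in Sox1-FOXA2- cells. Leaving out 1 library gave the crest list at most 2 members at p under 0.05 (without Sox1+FOXA2+ replicate 2), and the other 2 lists at most 1 (trophectoderm). The sides overlapped, and whether crest cells were present was not tested.

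Signals that steer neural induction were read through their pathway genes. FGF signalling primes stem cells to leave the naive state, Notch holds progenitors, and Nodal, BMP and Wnt oppose neural fate. In the FGF list edgeR called 0 of 12 members tested, DESeq2 called 1 (Fgf4) and 2 (16.7%, against 4.42% of all genes) had p under 0.05 in edgeR, Fgfr1 higher and Fgf4 lower in Sox1-positive cells, with a median of 0.22. The count was 4 without Sox1-FOXA2+ replicate 3. Fgf4 (ENSMUSG00000050917.5), the ligand gene of stem cells, had normalized counts of 0, 0 and 0 in Sox1+FOXA2+ and 26.7, 40.4 and 106 in Sox1+FOXA2- cells. With Sox1 negative it had 36.2, 0 and 312 in Sox1-FOXA2+ and 144, 767 and 538 in Sox1-FOXA2- cells, overlapping, against 2126, 2333 and 4941 at day 0 (log2 difference in edgeR -5.51, SE 1.85, p 0.00841). The size of this Fgf4 difference is uncertain, because only 8 of the day 2 libraries had counts. Over the alternatives it ran from -6.60 to -3.39. The receptor gene Fgfr1 ran from 4166 to 7545 (median 5888) against 2863 to 4966 (median 3808), overlapping, with a log2 difference of 0.59 (p 0.00524). Fgfr2, the most abundant member, differed by 0.04, and Fgf15 was at 0.

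In the Notch list 0 of 11 members tested were called and 0 had p under 0.05, with a median of 0.49 and 8 positive, where DESeq2 called 37 genes of all tested. The receptor gene Notch1 had 0.49 (p 0.0719), the ligand gene Jag1 had -1.69, and Nrarp was at 0. Nodal, BMP and Wnt genes had 0 of 14 called, 0 of 14 at p under 0.05 and a median of 0.11. Id2, a BMP target gene, came nearest, with normalized counts of 319.7 to 1025 (median 729) against 64.8 to 620 (median 295). These overlapped, and the log2 difference was 1.28 (p 0.0503). Tdgf1, a Nodal coreceptor gene, had -1.004, with the opposite sign (0.4363) without Sox1-FOXA2+ replicate 3. Axin2, a Wnt target gene, had 0.39 (0.17 to 0.53 over the alternatives).

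Cell cycle and stress genes show whether the gates differ in growth or handling. Of 15 cell cycle genes tested 0 were called and 1 (6.67%, against 4.42% of all genes) had p under 0.05, with 14 positive and a median of 0.16. Mcm2, which encodes a subunit of the replicative helicase, had normalized counts of 8784 to 12120 (median 9127) against 6439 to 8621 (median 7199). The ranges did not overlap, and the log2 difference was 0.36 (SE 0.15, p 0.0245). The count was 0 without Sox1-FOXA2- replicate 1 or 3, Sox1-FOXA2+ replicate 3 or Sox1+FOXA2- replicate 3, and it was 2 without Sox1+FOXA2- replicate 1. Top2a, a topoisomerase gene and the most abundant member, had 0.24 (p 0.0865), and Ccne2 had -0.45. Summed levels were 136600 to 185000 (median 168800) against 128100 to 155400 (median 145600).

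Immediate early and stress genes had 0 of 9 called and 1 (11.1%) at p under 0.05, with a median of 0.42 (-0.0179 without Sox1+FOXA2+ replicate 1). This was the stress factor gene Atf3, with normalized counts of 421 to 2431 (median 1114) against 78.5 to 859 (median 439). The ranges overlapped, and the log2 difference was 1.23 (p 0.0301). The count was 0 without Sox1+FOXA2- replicate 1 and 2 when Sox1+FOXA2- replicate 3 was left out. Over the 18 lists together 217 of 256 genes were tested, edgeR called 0 and 25 (11.5%, against 4.42% of all genes) had p under 0.05, with a median of 0.06. DESeq2 called 1 of these genes (Fgf4), and edgeR without the filter called 6 (Zscan4c, Usp17lc, Ptch1, Cyp26a1, Lamc1 and Klf5). Of the 39 not tested, 12 were at 0 in all 57 libraries. A share near that of all genes is not a result about the members. The lists were chosen with earlier results of these data known, so a larger share is not a test of them either. Genes with higher counts had a share of 7.29%.

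Medians of other lists also moved when 1 library was left out. The 2-cell-like median ran from -2.15 (Sox1+FOXA2+ replicate 3 left out) to -0.41 (without Sox1-FOXA2+ replicate 3), and the hedgehog median from -1.10 (Sox1-FOXA2- replicate 1 left out) to -0.144 (without Sox1-FOXA2+ replicate 2). Trophectoderm medians ran from -0.875 (Sox1+FOXA2- replicate 2 left out) to 0.291 (without Sox1-FOXA2- replicate 1), and visceral medians from -0.359 (Sox1-FOXA2- replicate 3 left out) to 0.133 (without Sox1+FOXA2+ replicate 3). Core medians were -0.13 to 0.174, neuronal -0.098 to 0.365, Nodal, BMP and Wnt -0.0992 to 0.259, Hox 0.0133 to 0.472 and FGF 0.0338 to 0.405. Crest medians were 0.624 to 1.18, Notch 0.261 to 0.697 and cell cycle 0.111 to 0.2.

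Within the FOXA2-negative gate, the Sox1 comparison contrasts cells in which neither endoderm nor floor plate reporter is on. Sox1+FOXA2- cells carry only the neural reporter. This test shares its libraries with the comparison above and is given beside it. In edgeR 0 of 20369 genes (0%) were called and 580 (2.85%) had p under 0.05, 320 higher and 260 lower, while DESeq2 called 121. The count of 580 became 255 without Sox1-FOXA2- replicate 3, 278 without Sox1-FOXA2- replicate 2, and it was 340 without Sox1+FOXA2- replicate 1. Mest, an imprinted gene of mesoderm named after its values were seen, had the smallest p (log2 difference 1.79, SE 0.36, p 0.00013; interaction -1.31, p 0.0178). It was called without Sox1+FOXA2- replicate 3, with a log2 difference of 2.14 and adjusted p 0.0382, over leave-outs that otherwise called 0 genes.

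In the naive pluripotency list 14 of 14 log2 differences were negative, with a median of -1.13 and 0 called in edgeR. At p under 0.05 were 2 (14.3%, against 2.85% of all genes), Klf5 and Dppa5a, the latter named after its values were seen. That count was 8 without Sox1+FOXA2- replicate 3, where the median was -2.85. It was 6 without Sox1+FOXA2+ replicate 3, and it was 3 without Sox1-FOXA2+ replicate 3 or Sox1+FOXA2+ replicate 1 or 2. It was 1 without Sox1-FOXA2- replicate 3 or Sox1+FOXA2- replicate 2, and it was 0 without Sox1-FOXA2- replicate 2 or Sox1+FOXA2- replicate 1. Neural progenitor genes had 4 of 16 at p under 0.05 (25%), all higher, and a median of 0.97 (0.371 without Sox1+FOXA2- replicate 2). Their count was 0 without Sox1+FOXA2- replicate 1, 1 without Sox1-FOXA2- replicate 2 or Sox1+FOXA2- replicate 2, and it was 2 without Sox1-FOXA2- replicate 1 or 3. Parietal genes had a median of 0.28 (-0.111 without Sox1+FOXA2- replicate 1) with 1 member higher (Serpinh1, 0.71), and visceral genes a median of 0.77 with 1 member higher (Dab2, 1.71), both members named after their values were seen. The parietal count was 3 without Sox1+FOXA2- replicate 3, 2 without Sox1-FOXA2- replicate 1 or Sox1+FOXA2+ replicate 3, and 0 when Sox1-FOXA2- replicate 2 or 3 or Sox1+FOXA2- replicate 1 or 2 was left out. The visceral count was 2 without Sox1-FOXA2- replicate 1 or Sox1+FOXA2- replicate 2, and the visceral median was 1.21 in the first case and 1.30 when Sox1+FOXA2- replicate 3 was left out.

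Within the FOXA2-positive gate, the contrast sets cells with both reporters against cells with FOXA2 alone. The study proposes that cells with both factors give rise to p3 progenitors of the ventral neural tube, while endoderm carries FOXA2 without SOX1. In edgeR 0 genes (0%) were called and 1698 (8.34%) had p under 0.05, 791 higher and 907 lower, while DESeq2 called 512. With a block for the replicate number 977 had p under 0.05, where about 1018 are reached when no gene differs. Without Sox1-FOXA2+ replicate 1 the test called 1 gene, Gm16478, and without Sox1+FOXA2+ replicate 1 it called 5, Dram2, Lrguk, Scamp2, B9d1 and Usp26, all named after their values were seen. The smallest p belonged to Foxo1, a gene of insulin signalling named after its values were seen, with a log2 difference of -1.98 (SE 0.41, p 0.000163; interaction -1.69, p 0.00789).

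Endoderm lists had negative medians in double-positive against FOXA2 single-positive cells, with 0 members called in edgeR. Parietal members had 6 of 13 at p under 0.05 (46.2%, against 8.34% of all genes), all lower, with a median of -1.25. The laminin chain genes Lama1 (-1.75), Lamb1 (-1.43) and Lamc1 (-1.50) were among them, with Sparc (-1.57), Nid1 (-1.25) and Srgn (-2.25). Their count was 3 without Sox1-FOXA2+ replicate 3, where the median was -0.79, and ran from 3 to 8 over the leave-outs. Visceral members had 5 of 15 (33.3%), all lower, with a median of -1.07 (-0.573 without Sox1-FOXA2+ replicate 2): Gata4 (-2.81), Gata6 (-3.07), Cubn (-3.53), Lrp2 (-0.78) and Dab2 (-1.47), of which Gata6, Cubn and Dab2 were named after their values were seen. Their count was 2 without Sox1-FOXA2+ replicate 2 or 3, and it was 3 without Sox1+FOXA2+ replicate 1.

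The hedgehog list had all 9 members negative there, with 0 called in edgeR, a median of -1.97 and 3 at p under 0.05 (33.3%, against 8.34% of all genes), Ptch1 (-1.33, p 0.00274) and Shh among them. That count was 1 without Sox1+FOXA2+ replicate 1 or 3, and the median was -3.09 without Sox1+FOXA2+ replicate 2. Neural progenitor genes had 4 members at p under 0.05, 2 higher and 2 lower, with a median of 0.42 (0.40 with genes at 0 on one side set to their bound). Over the leave-outs, which test more genes, that median ran from 0 (without Sox1+FOXA2+ replicate 1) to 0.378. Their count was 1 without Sox1-FOXA2+ replicate 1 or Sox1+FOXA2+ replicate 2 or 3, and it was 2 without Sox1-FOXA2+ replicate 3. Naive genes had 4 of 14 (28.6%), Nanog and Tfcp2l1 higher and Klf5 and Nr0b1 lower, with 9 positive and a median of 0.71, where Nanog and Nr0b1 were named after their values were seen. Their count was 1 without Sox1+FOXA2+ replicate 2, where the median was 0.118.

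The interaction tests whether the Sox1 difference depends on FOXA2. It uses the same 12 libraries, so it is set beside the tests above and not counted with them. In edgeR 0 genes (0%) were called and 1064 (5.22%) had p under 0.05, 486 positive and 578 negative, while DESeq2 called 366. Without Sox1+FOXA2+ replicate 1 it called 1 gene, B9d1, and 1894 had p under 0.05. Igfbp4, which encodes a binding protein of insulin-like growth factors and was named after its values were seen, had the smallest p (-2.14, SE 0.47, p 0.000311), at 1.52 without FOXA2 and -0.61 with it.

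Naive genes had 5 of 14 at p under 0.05 (35.7%, against 5.22% of all genes), all positive, with a median of 2.02 (1.18 without Sox1+FOXA2+ replicate 2, 3.42 without Sox1+FOXA2- replicate 3) and 12 positive. They were Nanog (5.40), Dppa3 (5.62), Zfp42 (2.10), Tfcp2l1 (1.94) and Prdm14, of which Nanog, Dppa3 and Prdm14 were named after their values were seen. The count was 9 without Sox1+FOXA2- replicate 3, 7 without Sox1-FOXA2+ replicate 2 or Sox1+FOXA2+ replicate 3, 3 without Sox1+FOXA2- replicate 1 or Sox1+FOXA2+ replicate 2, and it was 2 without Sox1-FOXA2- replicate 2 or Sox1+FOXA2- replicate 2. Tfcp2l1, a gene of a naive factor, had normalized counts of 823, 1860 and 1289 in Sox1+FOXA2+ and 889, 1080 and 4841 in Sox1+FOXA2- cells. Its counts were 442, 527 and 590 in Sox1-FOXA2+ and 1624, 5542 and 2849 in Sox1-FOXA2- cells. Thus the lowest levels were in FOXA2 single-positive cells, and Sox1+FOXA2- replicate 3 overlapped with the double-negative ones.

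Parietal genes had 5 of 13 negative at p under 0.05 (38.5%, against 5.22% of all genes) and a median of -1.10 (-1.80 without Sox1-FOXA2- replicate 1): Lama1 (-2.51), Lamb1 (-2.12), Lamc1 (-1.55, p 0.005), Sparc (-1.50, p 0.0183) and Serpinh1 (-1.08), of which Lama1, Lamb1 and Serpinh1 were named after their values were seen. The count was 8 without Sox1+FOXA2+ replicate 2 and ran from 4 to 8. Visceral genes had 3 of 15 (20%) and a median of -2.09, with Dab2 (-3.18, p 0.000507), Cubn (-4.30) and Lrp2 (-0.95), of which Dab2 and Cubn were named after their values were seen. Their count was 8 without Sox1-FOXA2- replicate 1, 6 without Sox1+FOXA2- replicate 3, 5 without Sox1-FOXA2+ replicate 1, and it was 2 without Sox1+FOXA2- replicate 2. Hedgehog genes had all 9 negative and a median of -1.64 (-4.30 without Sox1-FOXA2- replicate 3), with 1 at p under 0.05 (Nkx2-9, named after its values were seen, -4.99, p 0.0247) and Ptch1 at -1.06 (p 0.0603). Their count was 0 without Sox1+FOXA2- replicate 2, 1 with Sox1-FOXA2- replicate 2 or Sox1-FOXA2+ replicate 2 left out, 3 with Sox1+FOXA2- replicate 3 left out and 2 in the other 8 leave-outs. Neural progenitor genes had 1 of 16 (6.25%) and a median of -0.76 (-0.411 without Sox1+FOXA2- replicate 2). Their count ran from 1 to 3 over the leave-outs.

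Single genes of other lists also had small interaction p. Tfap2c was 4.54 (p 0.00124) in the FOXA2-positive gate with an interaction of 5.26 (p 0.00296). After normalization the counts were 44.2, 313 and 1175 in Sox1+FOXA2+, 132, 804 and 2485 in Sox1+FOXA2-, 17.2, 39.2 and 4.62 in Sox1-FOXA2+ and 1192, 2073 and 2289 in Sox1-FOXA2- cells. Rbpj, the gene of the transcription factor of Notch signalling, was -1.20 (p 0.00336) in the FOXA2-negative gate with an interaction of 1.63 (p 0.00429). Its normalized counts were 6388, 5976 and 4606 in Sox1+FOXA2+, 3674, 6450 and 8978 in Sox1+FOXA2-, 5126, 4039 and 3515 in Sox1-FOXA2+ and 7751, 14070 and 21440 in Sox1-FOXA2- cells. For Rbpj the 2 FOXA2-negative groups overlapped.

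The FOXA2 term of the same model gives a scale for these counts. In edgeR it called 16 genes (0.0786%), 8 higher and 8 lower in FOXA2-positive cells, with 1784 (8.76%) at p under 0.05. DESeq2 called 372 (129 higher, 243 lower) and edgeR without the filter 353 (134 higher, 219 lower). Higher in FOXA2-positive cells were Igfbp5 (3.51) and Igfbp4 (2.33), genes of growth factor binding proteins, and Peg3 (2.14), an imprinted gene. Lower were Rarg (-2.26), a retinoic acid receptor gene, and Dppa5a (-1.40), a pluripotency gene. These were named after their values were seen. The smallest p belonged to Zscan4a, also lower in FOXA2-positive cells (adjusted p in edgeR 0.000265). The count of 16 became 6 without Sox1-FOXA2- replicate 2, 10 without Sox1-FOXA2- replicate 3, 8 without Sox1+FOXA2- replicate 3, 26 without Sox1+FOXA2- replicate 2, 29 without Sox1+FOXA2- replicate 1, and it was 30 without Sox1+FOXA2+ replicate 3.

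Day 4 and day 6 libraries were sorted by the same gates. By then cells have had time to settle into neural or endoderm fates, and neurons can form. These libraries are separate from those of day 2. At day 4 edgeR called 0 of 22946 genes (0%), with 1805 (7.87%) at p under 0.05, 1195 higher and 610 lower, and DESeq2 called 441. Leaving out 1 library gave 1 call in 3 cases: Gata6 (-3.17, adjusted p 0.00672) without Sox1-FOXA2- replicate 1, Slc16a1 (-1.97, adjusted p 0.0444) without Sox1+FOXA2- replicate 1 and Fabp3 (-3.08, adjusted p 0.0088) without Sox1+FOXA2- replicate 3. The count of 1805 was 2902 without Sox1+FOXA2- replicate 2, 2748 without Sox1+FOXA2- replicate 1 and 2719 when Sox1-FOXA2- replicate 3 was left out, and RLE size factors gave 1491 higher and 454 lower. The median over all genes was 0.14, and the smallest p belonged to Zbtb16, a zinc finger gene of neural progenitors named after its values were seen (2.35, SE 0.38, adjusted p 0.142).

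At day 6 edgeR called 1 of 24203 genes (0.00413%), with 2101 (8.68%) at p under 0.05, 1268 higher and 833 lower, and DESeq2 called 336. The gene was Anxa2 (ENSMUSG00000032231.14, chromosome 9, 69453620 to 69491795), which encodes a membrane-binding annexin and was named after its values were seen. It was lower in Sox1-positive cells (-2.15, SE 0.31, adjusted p 0.0161), and it was not called without Sox1+FOXA2- replicate 2 (adjusted p 0.0757), Sox1+FOXA2- replicate 3 (0.105) or Sox1+FOXA2+ replicate 1 (0.0647). At day 2 its log2 difference was -0.43 (p 0.554) and at day 4 it was -1.88 (p 0.000572). Leaving out Sox1-FOXA2- replicate 2 or Sox1-FOXA2+ replicate 3 gave 2 calls, with Pdgfra, and leaving out Sox1+FOXA2+ replicate 3 gave 3, with Pdgfra and Crabp1 (3.44). The median over all genes was 0.22. The count of 2101 was 3504 (2772 higher, 732 lower) without Sox1-FOXA2- replicate 1 and 3792 (2401 higher, 1391 lower) when Sox1+FOXA2+ replicate 2 was left out, and RLE size factors gave 1541 higher and 490 lower.

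Neural progenitor genes had positive medians at each day and 0 members called in edgeR, with 8 of 18 at p under 0.05 at day 4 (44.4%, median 1.38) and 2 of 18 at day 6 (11.1%, median 1.05), beside 5 of 16 at day 2. Neuronal genes had 9 of 9 positive at both days, with medians of 1.20 and 1.47 and 1 of 9 at p under 0.05. Parietal genes had negative medians, with 8 of 14 at p under 0.05 at day 4 (57.1%, median -2.28) and 8 of 14 at day 6 (57.1%, median -1.34). Visceral genes had 2 of 16 lower at day 4 (median -1.10) and 5 of 17 at day 6 (29.4%, 1 higher and 4 lower, median -0.47). Genes of the 2-cell-like state had a median of -0.97 at day 2 and medians of 2.96 at day 4 (0 of 15) and 3.66 at day 6 (6 of 14 higher, 42.9%), and the list was not tested between days. Each of these shares stood beside 7.87% of all genes at day 4 or 8.68% at day 6.

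Genes named at day 2 were followed through the same days. Meox1 had 0.48 (p 0.615) at day 4 and 1.74 (p 0.0758) at day 6. Cyp1b1 had 0.70 (p 0.339) and 0.63 (p 0.46), and Hoxb8 1.69 (p 0.0711) and 1.22 (p 0.437). Cyp26a1 had -1.09 at day 2, -3.02 (p 0.000226) at day 4 and -1.16 (p 0.266) at day 6, and the carrier gene Crabp1 had 1.03 (p 0.0852) at day 2, 2.07 at day 4 and 3.19 (p 0.000115) at day 6. Klf5 had -1.98 (p 0.000113) at day 4 and -0.57 (p 0.117) at day 6, and Ccnd2 had 1.85 (p 0.0269) and then -0.63 (p 0.219), with the opposite sign. Crybg3 was negative at both days (-0.46, then -0.89 with p 0.0182), as was Tln1 (-0.44, then -0.66 with p 0.0133). Atf3 (-0.50, then -1.64 with p 0.0211) and Slc9a3r1 (-0.10, then -0.08) also turned negative. Of genes lower at day 2, Mbd5 (0.26, then 0.38), Arl15 (0.08, then 0.17) and Fam124a (1.195, then 0.23) were positive at both days. Sox1ot had 2.94 (p 0.0766) at day 4 and 3.60 (p 0.0493) at day 6. Lrpap1 kept a negative sign, at -2.09 and -1.02.

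The remaining lists are given by their members at p under 0.05 at day 4 and then day 6 (7.87% and 8.68% of all genes), and edgeR called 0 of them at either day. Nodal, BMP and Wnt genes had 1 of 15 higher (median 0.44) and 2 of 15 higher (median 0.89), and primitive streak genes 1 of 8 higher (median 0.23) and 0 of 9 (median 0.60). Retinoic acid response genes had 4 of 15 (26.7%) and 1 of 15 (6.67%), naive genes 3 of 14 lower (21.4%, median -0.27) and 1 (7.14%, median -0.10), and core genes 3 of 15 (20%) and 1 (6.67%). Hox genes had 0 of 13 (median 0.51) and 1 of 12 (median 0.09). Notch genes had 2 of 12 (median 0.69) and 0 of 13 (median 0.46), and FGF genes 0 of 12 and 0 of 13. Trophectoderm genes had 1 of 9 (median 0.69) and 3 of 8 (37.5%, 1 higher and 2 lower, median 0.49), crest genes 1 of 9 (median 0.14) and 1 (median 0.80), and hedgehog genes 1 of 9 higher (median 0.51) and 3 of 11 higher (27.3%, median -0.21), where both at day 2 were lower. Cell cycle genes had 0 of 15 at both days (medians -0.02 and -0.29). Immediate early genes had 0 of 9 (median 0.20) and 2 of 9 lower (median -0.29).

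**Figure D4:**
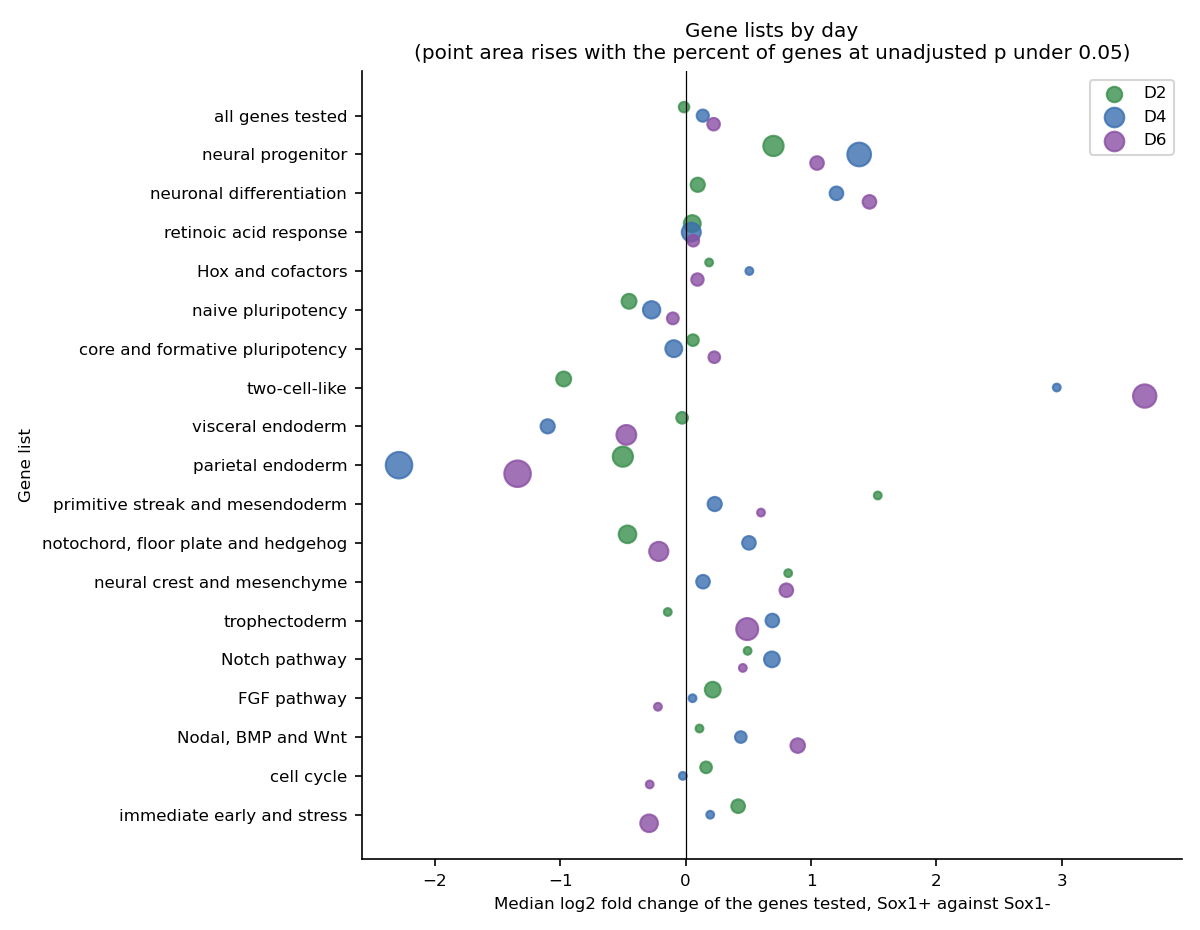
Median log2 difference between Sox1-positive and Sox1-negative cells for all genes tested and for each of the 18 lists at days 2, 4 and 6, with point area for the percent of members at unadjusted p under 0.05. Neural progenitor medians lie above 0 and parietal endoderm medians below 0 at all 3 days.

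Whether the Sox1 difference itself shifted between day 2 and day 6 was tested in 1 model of both days. It shares the libraries of those days with the tests above, and the Sox1 reporter followed SOX1 protein only weakly at day 6. In edgeR 0 of 26096 genes (0%) were called, with 1898 (7.27%) at p under 0.05, 1144 positive and 754 negative, and DESeq2 called 630. The smallest adjusted p was 0.535 (Sec11a, a signal peptidase gene named after its values were seen, -1.83).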

How the data were processed

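Gene counts as deposited by the authors (GENCODE M21, GRCm38; STAR, SAMtools and featureCounts) were analysed in R 4.3.3 with edgeR 4.0.16, DESeq2 1.42.0 and limma 3.58.1. Figures used Python 3.11.15, pandas 2.3.3, numpy 2.4.6 and matplotlib 3.10.9. Genes were filtered by filterByExpr over the 4 groups (minimum count 10, total 15), scaled by TMM and tested with quasi-likelihood F tests, 2-sided, Benjamini-Hochberg over all genes tested, at adjusted p under 0.05. Normalized counts are raw counts over DESeq2 size factors of the 39 sorted libraries. Of the nonzero day 2 counts 78.8% were even, so counts may not be numbers of fragments, and genes overlapped by others may be undercounted. Principal components used 500 genes. Members and lists were chosen with earlier results of these data known. Genes were named by rule: Sox1 and Foxa2, then called genes with the 10 largest and 10 smallest log2 differences, filled to 10 per direction by smallest p, and in each list the smallest p in each direction and the most abundant tested member. The 18 lists were neural progenitor, neuronal differentiation, retinoic acid response, Hox and cofactors, naive pluripotency, core and formative pluripotency, 2-cell-like, visceral endoderm, parietal endoderm, primitive streak and mesendoderm, notochord, floor plate and hedgehog, neural crest and mesenchyme, trophectoderm, Notch, FGF, Nodal, BMP and Wnt, cell cycle, and immediate early and stress. Alternatives were DESeq2, its size factors, no filter, no FOXA2 term, all 39 libraries in 1 model, means of within-gate differences, a replicate block, no mitochondrial genes and each library left out. Some genes that the rule names are not reported here.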

Additional observations from a re-analysis of the deposited data

Results flagged for a closer look

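In 25 of 152 sets of 6 libraries, 1 library lay far from the other 5. For normally distributed values of 1 group, chance gives about 1 in 20 sets (7.6 expected). These sets pool both FOXA2 gates and some hold skewed counts, so chance may give more than 7.6 here. The excess of 25 over 7.6 is therefore not a test. The sets share libraries, so they are not independent. Values are given for those of the 25 that are reported here.

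Sox1+FOXA2- replicate 3 accounted for the most. It scored -10.3 on the first principal component (others 2.34 to 7.15). Its normalized counts were 48500 for Stra8 (others 17100 to 24000), 4840 for Tfcp2l1 (823 to 1860), 10700 for Zfp42 (1100 to 2830) and 3840 for Dppa2 (1050 to 1920). It also had 1800 for Sparc (3050 to 3660), 2470 for Tdgf1 (0 to 276) and 12100 for Mcm2 (8780 to 9750).

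Sox1+FOXA2+ replicate 3 scored 15.8 on the second component (others -5.92 to -0.573). It had 6540 for Map2 (1670 to 2270), 576 for Wnt3 (0 to 206) and 95.1 for Prrx1 (0 to 14.4). Sox1+FOXA2+ replicate 2 had 3930 for Irf2bp2 (1530 to 2030), 255 for Gata4 (20.5 to 90.5) and 4160 for Ets1 (155 to 1410). Sox1+FOXA2+ replicate 1 had 169 for Eomes (0 to 32.9). Sox1+FOXA2- replicate 1 had 3330 for Usp17lb (0 to 135) and 20.6 for Fosb (0 in each of the others).

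On the Sox1-negative side, Sox1-FOXA2+ replicate 3 had 18200 for Sparc (2380 to 6080), 961 for Eomes (1.96 to 245) and 51000 for Fgfr2 (15700 to 23100). Sox1-FOXA2+ replicate 2 had 1430 for Ets1 (69.2 to 513). Sox1-FOXA2- replicate 2 had 5550 for Zscan4a (0 to 1030).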

How the results depend on the processing

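At day 2, edgeR called 0 genes between the Sox1 gates with DESeq2's size factors (RLE), without the FOXA2 term, with all 39 libraries in 1 model, with the mean of the within-gate differences (1333 at unadjusted p under 0.05), without mitochondrial genes (878, chosen after seeing the data) and in each of the 12 leave-outs. DESeq2 called 37 and edgeR without the filter 54. Within FOXA2- cells these 2 settings called 121 and 46, within FOXA2+ cells 512 and 51, for the interaction 366 and 56, for the FOXA2 term 372 and 353, at day 4 441 and 287, at day 6 336 and 143 and for day 6 against day 2 630 and 58.

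Leaving out 1 library gave 0 to 1 calls within FOXA2- cells, 0 to 5 within FOXA2+ cells, 0 to 1 for the interaction, 6 to 30 for the FOXA2 term, 0 to 1 at day 4, 0 to 3 at day 6 and 0 for day 6 against day 2. Leave-outs keep more genes past the filter (21844 to 22514 against 20369). The counts at unadjusted p under 0.05 at day 2 ran from 1169 to 1383 (901 with all libraries).

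Replicates were not treated as pairs: of 18 correlations between libraries of the same number 5 were over 0.1 (range -0.18 to 0.423), and 0 of 6 pairs of groups had all of theirs over 0.1, while 8 of 12 libraries correlated best with their own number and 7 of 12 had a nearest neighbour of the same number (2 of the same group). With the replicate block edgeR called 25 genes for the FOXA2 term and 3 at day 6 (Anxa2 -2.14, adjusted p 0.00603; Vim -1.36 and Sec11a -1.83, both 0.041), and 0 elsewhere. Within FOXA2+ cells the block left 977 genes at unadjusted p under 0.05, against 1698 without it and about 1018 when no gene differs. The block reversed Zfp42 (-0.2076) and Prrx1 (0.8354).

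The Foxa2 level difference (1.277 log2) ran from -0.08984 (without Sox1-FOXA2- replicate 2 or 3) to 2.898 over the leave-outs. Genes detected (-478.3) ran from -1348 to 206.6 (without Sox1+FOXA2+ replicate 3), and the difference was also positive without Sox1-FOXA2- replicate 1 (150.1), Sox1+FOXA2- replicate 3 (78.2) and Sox1+FOXA2+ replicate 2 (37.4). The mitochondrial share (-3.272 points, exact permutation p 0.08) ran from -4.051 (p 0.01, without Sox1+FOXA2+ replicate 3) to -2.32. The first component on log2 CPM differed by 23.31 (exact permutation p 0.015). The permutations of 12 libraries could give 0.005 at the smallest.

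Among named genes at day 2, leaving out the FOXA2 term reversed Tfcp2l1 (-0.1229), Zfp42 (-0.6607), Zscan4d (-1.882), Tfap2c (-0.2041) and Foxa2 (-0.6161). Zfp42 was also negative without the filter (-0.004353) and without mitochondrial genes (-0.01405). Leave-outs carried Zfp42 from -0.4486 to 0.3249, Usp17lb from -0.9565 to 1.518, Zscan4d from -0.8762 to 1.26, Fgfr2 from -0.07107 to 0.3353 and Tdgf1 from -2.544 to 0.4363. Of the values of named genes 1360 kept their direction and their side of the threshold, 31 newly passed it and 26 changed sign. Where counts changed, the cause was not tested. Errors were larger for genes with few counts (median SE 0.982 over all genes, 0.244 over those with higher counts), and depth was not varied.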
